A study of Mus musculus with 6 samples.

Results

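The transcript levels of 49 genes of the cell division cycle were compared between penile tumors and normal penis of the mouse. The genes were given by name and fall into 11 genes of the passage from G1 to S phase (G1/S), 10 genes of DNA replication (S) and 28 genes of mitosis (G2/M). All 49 were found among the 24063 gene symbols of the count tables, and all 49 passed the filter on low counts. Total RNA was sequenced as stranded paired-end libraries from 3 SA tumors and 3 WT penises, all of 5-month-old male mice. SA mice were PB-Cre+ Smad4L/L ApcL/L, in which Cre recombinase (the PB-Cre4 line) under the androgen-responsive probasin promoter deletes both tumor suppressor genes in the penile epithelium, and their tumors arose without a carcinogen. WT mice were C57BL/6 wild type without Cre or floxed alleles. The background strain of the SA mice is not given in the sources used here.

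The gene rows held 24466536, 27547073 and 110509147 counts in SA tumors 1, 2 and 3, and 25016259, 32871142 and 23828283 counts in WT penises 1, 2 and 3. Levels are given as CPM, counts scaled to a common library size by the TMM method of edgeR, and 3 counts amounted to between 0.0244 and 0.137 CPM. Smad4 stood at 36.6, 36.1 and 46.1 CPM in the SA tumors and at 61.2, 69.7 and 72.5 CPM in the WT penises (log2 fold change -0.77, standard error 0.128, adjusted p = 0.00114). Apc stood at 253, 194 and 197 CPM in the SA tumors and at 62.5, 85.3 and 91.1 CPM in the WT penises (log2 fold change 1.43, standard error 0.168, adjusted p = 0.000185). Apc transcript was thus higher in the mice with floxed Apc. These counts cover whole transcripts and do not isolate the deleted exons, so for neither gene do they check the deletion itself. Basal epithelial markers (Krt5, Krt14 and 6 others) summed to between 10020 and 12361 CPM in the SA tumors and to between 21287 and 23313 CPM in the WT penises. Smooth muscle markers summed to between 35.6 and 124 CPM in the SA tumors and to between 1539 and 2056 CPM in the WT penises, which are labelled as epithelium. Granulocyte markers summed to between 1508 and 2659 CPM in the SA tumors and to between 69.1 and 137 CPM in the WT penises. By gene, 5 of 8 basal, 7 of 8 suprabasal, 6 of 6 smooth muscle, 3 of 6 endothelial and 1 of 6 fibroblast markers were lower in the SA tumors, 7 of 8 granulocyte markers were higher, and 0 of 7 leukocyte markers tested passed, with 4 at an unadjusted p under 0.05. These markers thus moved with the groups, their part in the values below was not tested, and in bulk RNA fewer cells of a type and less RNA per cell cannot be told apart.

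The division cycle is driven by cyclin-dependent kinases, whose cyclin partners are made and destroyed in turn. D and E cyclins with Cdk4, Cdk6 and Cdk2 release the E2F transcription factors from the retinoblastoma protein, and E2F factors switch on genes for DNA replication. Cyclins A and B with Cdk1 then drive mitosis, and most mitotic transcripts rise in G2 under promoters that carry a CCAAT box and a cell cycle genes homology region. In a stratified squamous epithelium the dividing cells normally sit in and just above the basal layer, and the cells above them leave the cycle as they keratinize.

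By phase, the homology region was most frequent in G2/M promoters and the E2F site in S promoters. Promoter entries of RefSeq (assembly GRCm38.p6, 250 bases before to 50 bases after the transcript start) were matched by symbol for 41 of the 49 genes, 5 of which had 2 entries. The homology region was searched as TTTGAA, the CCAAT box, which binds the factor NF-Y, as CCAAT, and the E2F site as TTTCCCGC, TTTGGCGC, TTTCGCGC or TTTGCCGC, all on both strands, and matches of the E2F letters could overlap each other. TTTGAA was present in 17 of 23 G2/M promoters (73.9%), in 1 of 9 S promoters (11.1%) and in 2 of 9 G1/S promoters (22.2%), against 14.7% of the 12004 tested genes with an entry. In a shorter window, from 100 bases before to 50 bases after the start, its share among G2/M genes was still 73.9%, against 5.93% of all tested genes. CCAAT was present in 91.3% of G2/M promoters, 88.9% of S promoters and 55.6% of G1/S promoters, against 41.9% of all tested genes. An E2F site was present in 44.4% of S promoters and 33.3% of G1/S promoters, but in 4.35% of G2/M promoters, against 4.17% of all tested genes. In the shorter window E2F sites were in 33.3% of S, 22.2% of G1/S and 0% of G2/M promoters, against 2.31% of all tested genes. The CCAAT share there was 82.6% of G2/M, 77.8% of S and 33.3% of G1/S promoters, against 28.2% of all tested genes. A match describes the letters only.

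**Figure D1:**
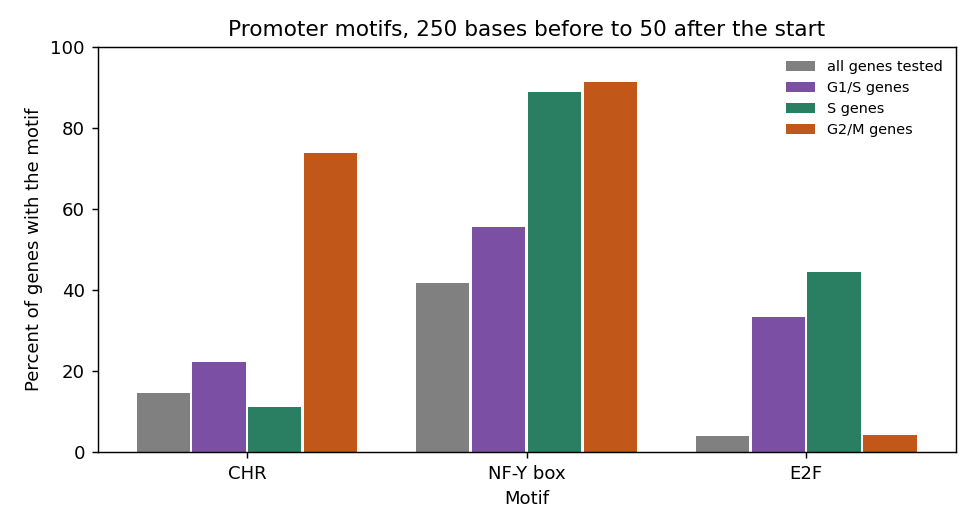
Percent of genes whose promoter holds each motif (vertical axis), for all genes tested and for the genes of each phase (bars). The G2/M bar is the tallest for the homology region (CHR, 73.9%), and the S bar is the tallest for the E2F site (44.4%).

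Stretches of 170 bases that end just before the transcript start are printed for 7 S and G2/M genes, to show how the elements lie. They are written in the direction of transcription, with matches to the 3 motifs on either strand in capitals. The mitotic kinase Cdk1 is at chr10:69352913-69353082 (minus strand), the anaphase activator Cdc20 at chr4:118437344-118437513 (minus), the ubiquitin-conjugating enzyme Ube2c at chr2:164769759-164769928 (plus) and the topoisomerase Top2a at chr11:99024190-99024359 (minus). The helicase subunits Mcm5 and Mcm6 are at chr8:75109339-75109508 (plus) and chr1:128359706-128359875 (minus). The phosphatase Cdc25b is at chr2:131186778-131186947 (plus).
Cdk1: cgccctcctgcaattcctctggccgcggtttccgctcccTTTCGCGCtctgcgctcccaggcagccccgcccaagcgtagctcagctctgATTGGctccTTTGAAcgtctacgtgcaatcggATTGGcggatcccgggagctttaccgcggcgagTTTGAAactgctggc
Cdc20: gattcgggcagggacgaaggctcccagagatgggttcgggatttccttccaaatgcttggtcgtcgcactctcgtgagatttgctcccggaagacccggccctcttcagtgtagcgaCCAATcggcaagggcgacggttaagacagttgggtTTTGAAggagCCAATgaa
Ube2c: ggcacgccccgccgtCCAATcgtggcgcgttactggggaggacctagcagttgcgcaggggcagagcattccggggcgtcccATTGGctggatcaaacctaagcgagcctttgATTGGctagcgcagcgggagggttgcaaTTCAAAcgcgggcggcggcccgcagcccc
Top2a: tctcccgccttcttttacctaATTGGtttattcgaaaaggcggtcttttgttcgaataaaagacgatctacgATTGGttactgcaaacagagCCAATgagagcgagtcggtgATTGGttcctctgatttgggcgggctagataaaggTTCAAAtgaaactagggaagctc
Mcm5: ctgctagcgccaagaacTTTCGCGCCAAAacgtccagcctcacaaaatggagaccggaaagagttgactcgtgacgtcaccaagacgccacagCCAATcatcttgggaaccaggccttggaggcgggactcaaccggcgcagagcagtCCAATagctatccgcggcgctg
Mcm6: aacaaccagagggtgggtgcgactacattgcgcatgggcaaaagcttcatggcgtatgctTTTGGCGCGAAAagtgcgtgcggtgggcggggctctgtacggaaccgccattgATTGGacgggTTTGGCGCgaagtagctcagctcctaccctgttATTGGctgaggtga
Cdc25b: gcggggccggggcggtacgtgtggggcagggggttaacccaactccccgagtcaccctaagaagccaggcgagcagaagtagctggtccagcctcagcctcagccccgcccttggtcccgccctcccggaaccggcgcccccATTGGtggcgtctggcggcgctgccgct
Cdk1 has TTTGAA at 71 and 15 bases before the start and an E2F site at 131 bases before it. Cdc20, Ube2c and Top2a each have the homology region within 29 bases of the start with CCAAT boxes near it. Mcm5 and Mcm6 have E2F letters and CCAAT boxes and no TTTGAA in these stretches. Cdc25b, a mitotic gene that was lower in the SA tumors, has a single CCAAT box at 28 bases before the start and neither of the other motifs. Racgap1, the other G2/M gene that passed the test as lower, has TTTGAA at 5 bases after its start. Bub1, a G2/M gene that passed as higher, has CCAAT boxes and no TTTGAA. Mki67, the other G2/M gene that passed as higher, has CCAAT boxes and TTTGAA at 116 and 98 bases before its start. A link between motif and direction of change was not tested.

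Few of the 49 genes passed the test between tumor and normal penis. At an adjusted p under 0.01 (edgeR's quasi-likelihood test over 16336 genes), 6 genes were higher in the SA tumors (12.2%) and 4 were lower (8.16%), against 20.1% and 17.5% of all genes tested. The 6 were Ccne1, Cdk6, E2f8, Rrm2, Bub1 and Mki67, and the 4 were Ccnd2, Cdc25b, Rrm1 and Racgap1. Only Ccne1 also reached a log2 fold change of 2, which 9.41% of all genes tested did in the higher and 3.59% in the lower direction. All 3 SA tumors were above all 3 WT penises for 19 genes (38.8%) and below them for 5, against 32.7% and 30.7% of all genes tested. The log2 fold change was positive for 36 genes and negative for 13, with a median of 0.35, and the median of all genes tested was 0.03. With scaling by library totals only, which shifts the median gene to 0.31, the split was 19 higher and 3 lower, against 32.1% of all genes higher. At an unadjusted p under 0.05, 18 genes were higher and 7 lower, against 31.1% and 27.9% of all genes tested. The 95% interval of the log2 fold change lay within 1 on either side of 0 for 30 of the 49 genes (61.2%). The share was 53.6% among all genes tested. For the 30 genes a change of 2-fold or more was outside the interval. The largest upper bound was 3.32, of Ccne1.

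**Figure D2:**
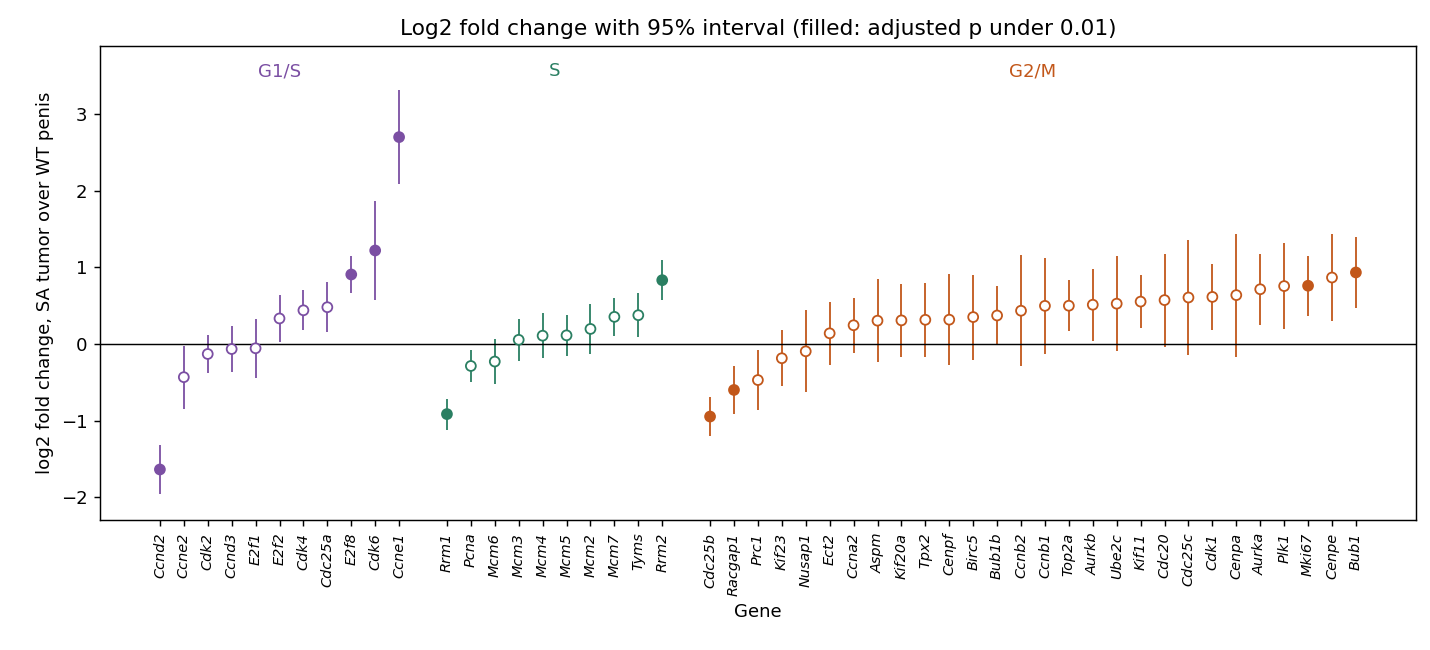
Log2 fold change of each gene, SA tumor over WT penis (vertical axis), with its 95% interval (line), ordered within phase; filled points passed an adjusted p of 0.01. The 10 filled points lie between -1.64 (Ccnd2) and 2.70 (Ccne1), and most open points lie above 0, up to 0.87 (Cenpe).

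The G1/S genes held the largest changes in both directions. Of the 11 genes, 3 were higher (27.3%) and 1 was lower (9.09%), against 20.1% and 17.5% of all genes tested. Their median log2 fold change was 0.33. All SA tumors were above all WT penises for 6 genes (54.5%) and below them for 1, against 32.7% and 30.7% of all genes tested.

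Ccne1 encodes cyclin E1, which activates Cdk2 at the start of replication. It stood at 31.9, 24.6 and 17.3 CPM in SA tumors 1, 2 and 3 and at 2.80, 4.01 and 4.46 CPM in WT penises 1, 2 and 3. The lowest tumor was well above the highest normal penis, and the mean ratio was 6.55-fold (log2 fold change 2.70, standard error 0.267, adjusted p = 7.51e-05). Its paralog Ccne2 (cyclin E2) stood at 10.7, 7.95 and 9.61 CPM in the tumors and 10.4, 13.9 and 14.0 CPM in the WT penises, groups that overlapped (log2 fold change -0.43, adjusted p = 0.0724). Per kilobase of transcript, the ratio of Ccne1 to Ccne2 was 4.72, 4.93 and 2.87 in the SA tumors and 0.431, 0.460 and 0.508 in the WT penises. The more abundant E cyclin transcript was thus Ccne1 in every tumor and Ccne2 in every WT penis. Cdk2 itself stood between 32.5 and 38.2 CPM in the tumors and between 36.3 and 38.6 CPM in the WT penises (95% interval of the log2 fold change -0.37 to 0.11). Cdc25a, the phosphatase that activates Cdk2, had a log2 fold change of 0.48 (adjusted p = 0.021), and all tumors, at 22.7 to 29.4 CPM, were above all WT penises, at 16.0 to 19.5 CPM.

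Ccnd2 encodes cyclin D2, 1 of the mitogen-induced partners of Cdk4 and Cdk6. It stood at 314, 329 and 357 CPM in the SA tumors and at 874, 1040 and 1201 CPM in the WT penises. The groups lay far apart, with the mean 3.12-fold lower in the tumors (log2 fold change -1.64, standard error 0.137, adjusted p = 3.07e-05). Cyclin D3 (Ccnd3) stood at 46.9, 55.2 and 65.2 CPM in the tumors and at 59.1, 55.3 and 60.9 CPM in the WT penises, which overlapped. Per kilobase, Ccnd2 exceeded Ccnd3 in all 6 samples, by 2.30, 2.05 and 1.88 times in the tumors and by 5.08, 6.44 and 6.76 times in the WT penises. Ccnd1, the third D cyclin, is not among the 49 genes and is named here after its values were seen. It stood between 270 and 313 CPM in the tumors and between 156 and 267 CPM in the WT penises (log2 fold change 0.45, adjusted p = 0.0672).

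The kinases of the D cyclins were both above their normal level in every tumor. Cdk6 stood at 12.1, 7.32 and 13.2 CPM in the SA tumors and at 3.30, 5.71 and 4.97 CPM in the WT penises (log2 fold change 1.22, standard error 0.282, adjusted p = 0.00656). Its call was lost in 5 of 6 fits that left out 1 sample, with adjusted p = 0.0145 and 0.0179 without SA tumors 1 and 3, and 0.0235, 0.0102 and 0.0192 without WT penises 1, 2 and 3, and also with limma-voom (0.0108). Cdk4 stood at 198, 178 and 156 CPM in the tumors and at 139, 132 and 121 CPM in the WT penises. Its log2 fold change of 0.44 just missed the threshold (adjusted p = 0.0111), and it passed without SA tumor 3 (adjusted p = 0.00473). Per kilobase, Cdk4 was 21.8 to 44.6 times as high as Cdk6 in the tumors and 42.4 to 77.3 times in the WT penises.

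Of the E2F factors, the atypical repressor E2f8 was higher. It stood at 36.7, 39.7 and 37.0 CPM in the SA tumors and at 19.8, 21.5 and 19.1 CPM in the WT penises, with little spread in either group (log2 fold change 0.91, standard error 0.104, adjusted p = 0.00016). The activators E2f1 and E2f2 did not pass. E2f1 stood between 12.5 and 14.3 CPM in the tumors and between 10.99 and 16.4 CPM in the WT penises, and its log2 fold change of -0.06 took either sign across the alternative settings. E2f2 had a log2 fold change of 0.33 (adjusted p = 0.0637).

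**Figure D3:**
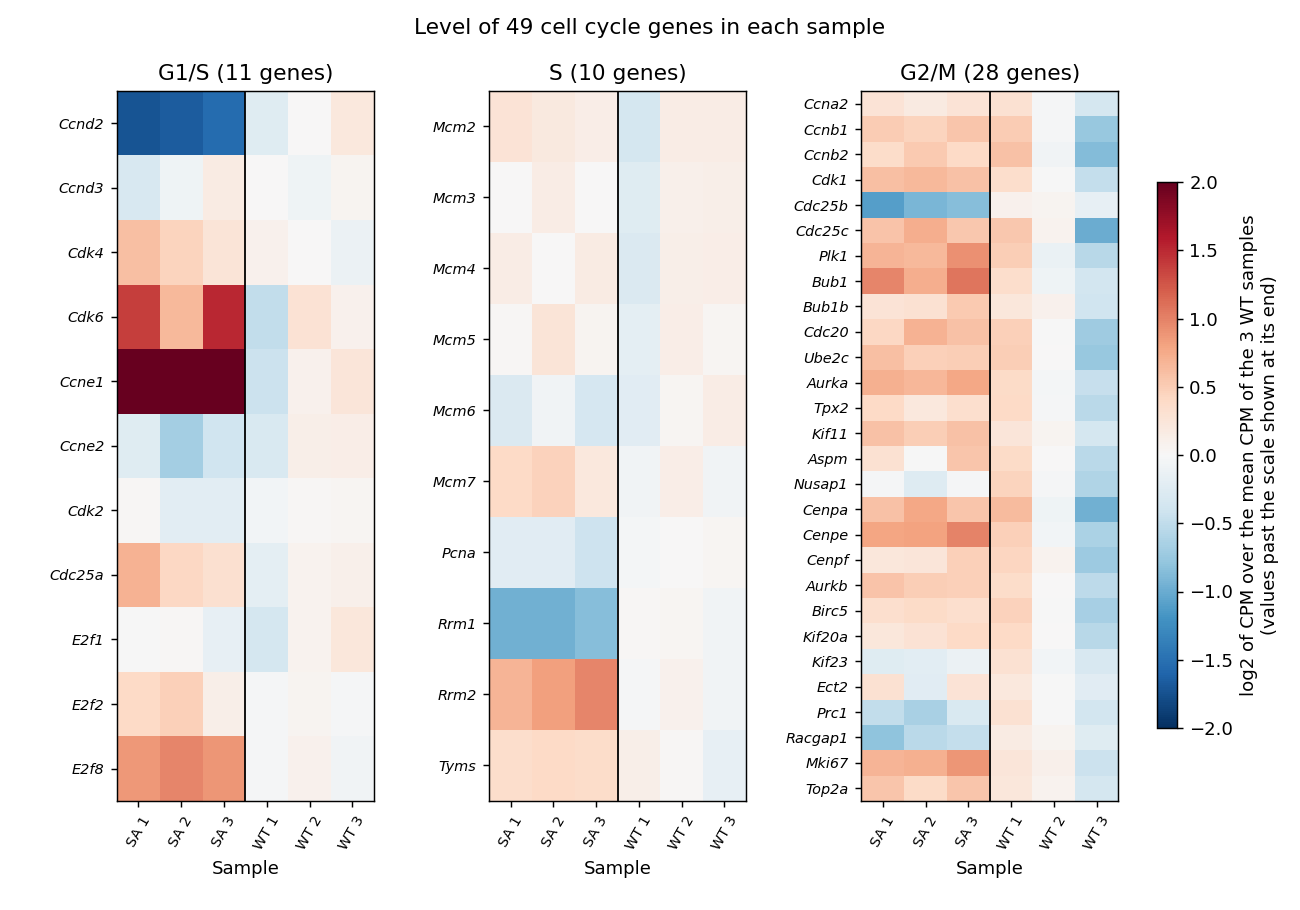
Level of each gene (rows) in each sample (columns), as log2 of its CPM over the mean CPM of the 3 WT penises, by phase; red is above and blue below that mean. Ccne1 is dark red and Ccnd2 dark blue in all SA tumors, and in the G2/M panel WT penis 1 is red and WT penis 3 blue for nearly every gene.

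The S phase genes had the smallest median difference. Of the 10 genes, 1 was higher and 1 was lower, against 20.1% and 17.5% of all genes tested. Their median log2 fold change was 0.11. All tumors were above all WT penises for 3 genes and below them for 2, against 32.7% and 30.7% of all genes tested. The groups overlapped for 5.

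The calls in each direction fell on the subunits of a single enzyme. Ribonucleotide reductase, which makes deoxyribonucleotides, joins a large subunit (Rrm1) to a small subunit (Rrm2). Rrm1 stood at 97.7, 97.7 and 105 CPM in the SA tumors and at 193, 193 and 181 CPM in the WT penises (log2 fold change -0.92, standard error 0.088, adjusted p = 6.24e-05). Rrm2 stood at 47.0, 51.3 and 57.8 CPM in the tumors and at 28.7, 31.0 and 27.9 CPM in the WT penises (log2 fold change 0.83, standard error 0.112, adjusted p = 0.000388). Neither gene's groups overlapped, and the directions were opposite. Per kilobase, the ratio of Rrm2 to Rrm1 was 0.882, 0.963 and 1.00 in the tumors and 0.272, 0.294 and 0.283 in the WT penises. The subunit transcripts were thus near parity in the tumors, and the large subunit was in excess in the WT penises. Both promoters hold CCAAT boxes, and neither holds the E2F letters or TTTGAA. Thymidylate synthase (Tyms), which makes thymidylate for DNA, stood at 17.3, 17.9 and 17.6 CPM in the tumors and at 14.7, 13.9 and 12.1 CPM in the WT penises (log2 fold change 0.38, adjusted p = 0.0329).

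The 6 subunits of the MCM helicase, the ring that unwinds DNA at replication forks, were not called in either direction. Their log2 fold changes lay between -0.23 (Mcm6, which turned to 0.05 with library totals) and 0.35 (Mcm7), and their 95% intervals lay between -0.52 and 0.60. Mcm7 was the single subunit whose groups did not overlap, at 67.9 to 80.8 CPM in the tumors and 56.1 to 64.6 CPM in the WT penises (adjusted p = 0.0236). The MCM proteins form a ring with a single copy of each, and per kilobase the highest transcript was 1.92 to 2.41 times the lowest within every sample. Mcm7 was the highest of the 6 in all SA tumors and Mcm6 the highest in all WT penises. In WT penis 1 the 2 were nearly equal, at 23.55 (Mcm6) and 23.45 (Mcm7) CPM per kilobase. WT penis 1 was the lowest normal sample for 5 of the 6 subunits, against 40.6% of all genes tested. Without WT penis 1 the log2 fold changes of Mcm3 and Mcm4 changed sign, to -0.06 and -0.03. The polymerase clamp Pcna stood at 71.8, 72.1 and 63.3 CPM in the tumors and at 82.2, 84.3 and 86.2 CPM in the WT penises. All tumors were below all WT penises for Pcna, with a small difference that did not pass (log2 fold change -0.29, adjusted p = 0.0301).

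**Figure D4:**
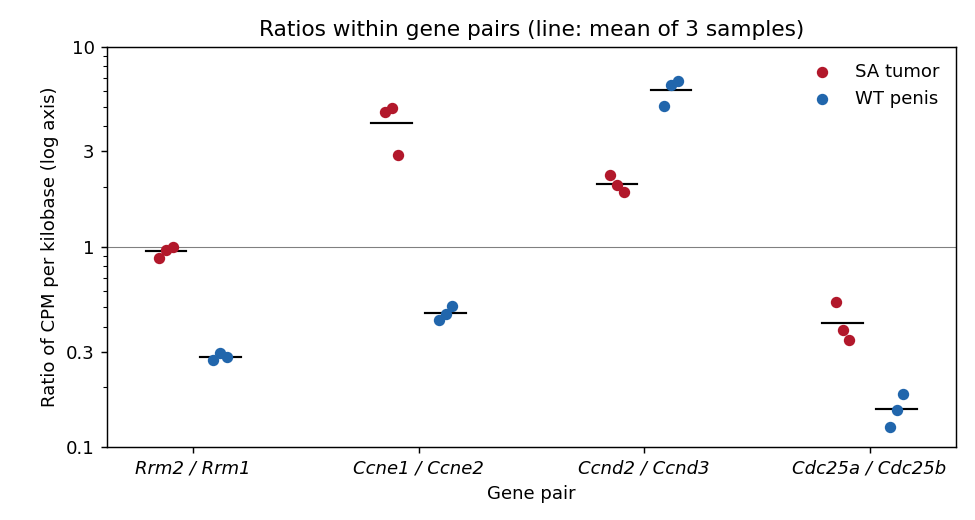
Ratio of the levels of 2 related genes per kilobase of transcript (vertical log axis) in each SA tumor (red) and WT penis (blue), with the mean of 3 samples (line). The groups are apart for all 4 pairs, and the Rrm2 to Rrm1 ratio is near 1 in the tumors and near 0.28 in the WT penises.

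These ratios were formed after the values had been seen and are given without a test. The fourth pair drawn is that of the phosphatases, and per kilobase Cdc25a was 0.528, 0.384 and 0.342 times Cdc25b in the SA tumors and 0.126, 0.154 and 0.184 times in the WT penises.

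Most G2/M genes had a positive log2 fold change, and few of them passed the test. Of the 28 genes, 2 were higher (7.14%) and 2 were lower (7.14%), against 20.1% and 17.5% of all genes tested. The log2 fold change was positive for 23 genes (82.1%, against 51.7% of all genes tested), with a median of 0.47. All tumors were above all WT penises for 10 genes (35.7%) and below them for 2, against 32.7% and 30.7% of all genes tested. The groups overlapped for 16.

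Mki67 encodes Ki-67, the coat protein of mitotic chromosomes that is stained as a marker of dividing cells. It stood at 228, 231 and 262 CPM in the SA tumors and at 168, 152 and 105 CPM in the WT penises. The groups did not overlap, and the mean was 1.69-fold higher in the tumors (log2 fold change 0.76, standard error 0.170, adjusted p = 0.00572). The call was lost without SA tumors 2 or 3 or WT penis 2 (adjusted p = 0.0178, 0.0152 and 0.0189). Top2a, the topoisomerase that untangles replicated chromosomes, stood at 144, 127 and 145 CPM in the tumors and at 115, 103 and 77.3 CPM in the WT penises (log2 fold change 0.50, adjusted p = 0.020).

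Bub1, a kinase of the spindle assembly checkpoint, stood at 14.7, 12.3 and 15.8 CPM in the SA tumors and at 9.54, 7.08 and 5.83 CPM in the WT penises (log2 fold change 0.93, standard error 0.204, adjusted p = 0.00494). Its groups did not overlap, but the call was lost without SA tumors 1 or 3 (adjusted p = 0.0105 and 0.0131) and without WT penises 2 or 3 (0.0262 and 0.0192). Its checkpoint partner Bub1b had a log2 fold change of 0.37 (adjusted p = 0.093). Cdc20, which activates the anaphase-promoting complex, and Ube2c, which supplies that complex with ubiquitin, had log2 fold changes of 0.57 and 0.53 and groups that overlapped. Cdc20 stood at 43.6, 53.2 and 49.3 CPM in the tumors and at 45.4, 32.7 and 20.1 CPM in the WT penises. Ube2c stood at 30.7, 28.2 and 28.3 CPM in the tumors and at 28.3, 20.2 and 11.98 CPM in the WT penises. For both, WT penis 1 reached the level of the tumors and WT penis 3 was far below it.

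Among the genes of mitotic entry, WT penis 1 reached the level of the tumors for both B cyclins and not for Cdk1. The B cyclin Ccnb1 stood at 27.0, 25.8 and 27.8 CPM in the SA tumors and at 27.1, 18.7 and 11.3 CPM in the WT penises, and Ccnb2 at 20.9, 23.1 and 21.3 against 24.2, 15.3 and 8.84 CPM. Their kinase Cdk1 stood at 32.1, 33.2 and 31.6 CPM in the tumors and at 27.0, 21.1 and 15.2 CPM in the WT penises (log2 fold change 0.61, adjusted p = 0.0247). The tumors thus varied little among themselves, and the WT penises varied much. Plk1, a kinase of mitotic entry and spindle assembly, had a log2 fold change of 0.76 (adjusted p = 0.0297), cyclin A2 (Ccna2) of 0.24 (adjusted p = 0.219) and the phosphatase Cdc25c of 0.61 (adjusted p = 0.152).

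Cdc25b, a phosphatase that activates Cdk1 at the onset of mitosis, went the other way. It stood at 47.6, 54.1 and 56.8 CPM in the SA tumors and at 109, 106 and 91.1 CPM in the WT penises. The groups were apart, with the mean 1.93-fold lower in the tumors (log2 fold change -0.95, standard error 0.112, adjusted p = 0.000194). Racgap1, the GTPase-activating subunit of the centralspindlin complex that positions the cleavage furrow, stood at 38.8, 46.4 and 48.3 CPM in the tumors and at 75.7, 70.2 and 56.9 CPM in the WT penises (log2 fold change -0.60, standard error 0.136, adjusted p = 0.00602). Racgap1 lost its call without SA tumors 1 or 2 (adjusted p = 0.0154 and 0.0168) and without WT penises 1 or 2 (0.0248 and 0.0262), and with scaling by the upper quartile (0.0136) or by library totals (0.0716).

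The partners of Racgap1 in cytokinesis did not pass the test. Kif23, the motor subunit of centralspindlin, had a log2 fold change of -0.19 (adjusted p = 0.351), and Ect2, the exchange factor that centralspindlin recruits, of 0.14 (adjusted p = 0.545). Prc1, which bundles the microtubules of the central spindle, stood at 36.1, 32.6 and 41.2 CPM in the SA tumors and at 62.5, 50.6 and 39.5 CPM in the WT penises (log2 fold change -0.47, adjusted p = 0.047). Of the chromosomal passenger complex, the kinase Aurkb had a log2 fold change of 0.51 (adjusted p = 0.0632) and survivin (Birc5) of 0.35 (adjusted p = 0.253). The motor Kif20a, which carries that complex to the spindle midzone, had a log2 fold change of 0.31 (adjusted p = 0.246).

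None of the 8 spindle and centromere genes passed the threshold in edgeR's test of all 6 samples. The kinetochore motor Cenpe had the largest log2 fold change of them, 0.87 (adjusted p = 0.018, and 0.00915 with limma-voom), with 34.4, 35.0 and 39.8 CPM in the SA tumors and 27.8, 19.2 and 12.8 CPM in the WT penises. The spindle pole kinase Aurka (0.72, adjusted p = 0.0176) and the bipolar spindle motor Kif11 (0.55, adjusted p = 0.0144) were likewise above all WT penises in all tumors. The centromeric histone Cenpa had a log2 fold change of 0.64 with a 95% interval of -0.17 to 1.44, the widest of the G2/M genes. The kinetochore protein Cenpf (0.32), the Aurka activator Tpx2 (0.32), the spindle pole protein Aspm (0.30) and the microtubule protein Nusap1 (-0.10) had groups that overlapped.

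The G2/M genes varied together among the normal samples. WT penis 1 was the highest and WT penis 3 the lowest of the WT penises for 28 of 28 genes, an order that 26.3% of all genes tested had. The ratio of WT penis 1 to WT penis 3 ranged from 1.19 (Cdc25b) to 3.00 (Cenpa), with a median of 1.87. It was at least 1.5 for 24 of the 28 genes, against 6.98% of all genes tested and 2.67% of genes at the same range of WT levels. The coefficient of variation was larger among the WT penises than among the SA tumors for 27 of 28 genes, with medians of 30.2% and 7.495%, whereas this held for 40.7% of all genes tested. Summed over the 28 genes, the level was 1174, 968 and 704 CPM in WT penises 1, 2 and 3 and 1138, 1123 and 1231 CPM in the SA tumors. The WT penis with the highest sum thus lay within the range of the tumors by this sum. By the median gene it lay just below them. The log2 of CPM over the mean WT level was 0.38 in WT penis 1 and 0.40, 0.41 and 0.50 in the SA tumors.

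**Figure D5:**
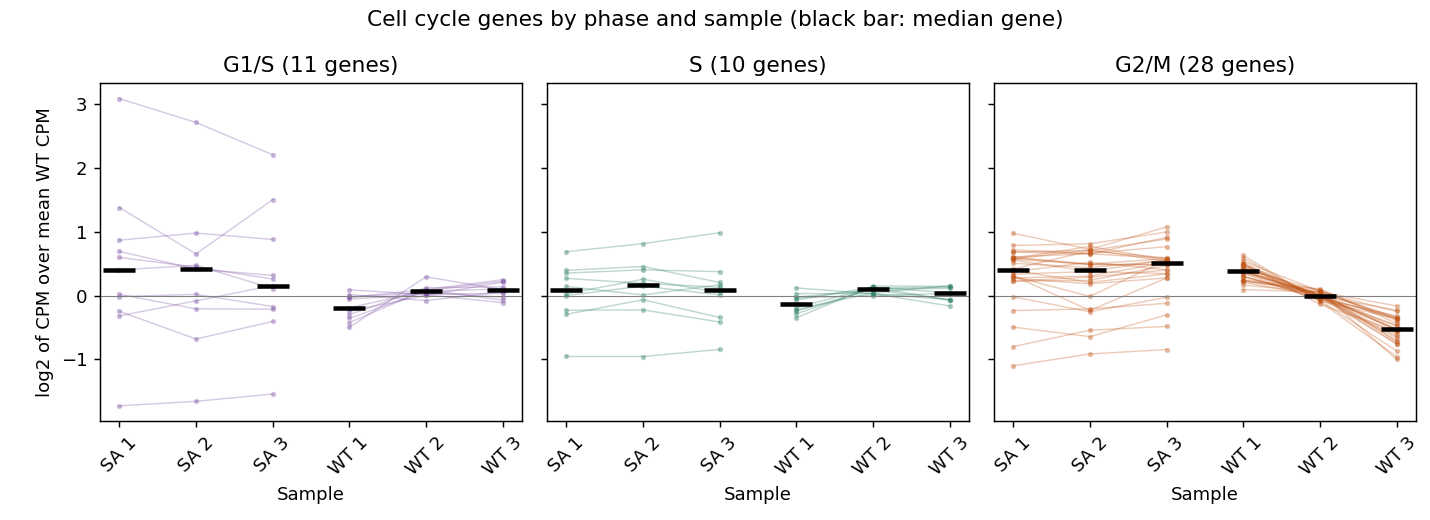
Log2 of CPM over the mean WT level (vertical axis) for each gene (points, with thin lines joining the points of a gene) and the median gene (black bar) in each sample, by phase. The G2/M medians are 0.38, 0.00 and -0.53 in WT penises 1, 2 and 3 and 0.40, 0.41 and 0.50 in the SA tumors, and the G1/S and S medians do not show this order.

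The genes of the earlier phases did not share that order. WT penis 1 was the lowest normal sample for 7 of 11 G1/S genes and 6 of 10 S genes, against 40.6% of all genes tested. The median ratio of WT penis 1 to WT penis 3 was 0.816 for G1/S and 0.901 for S genes. The S genes summed to 602, 677 and 657 CPM in the WT penises and to 582, 607 and 577 CPM in the tumors. Of a list of 48 other G2/M genes, 39 had the same order of WT penises, with a median ratio of 1.40. The median log2 fold change of the 28 genes was 0.65 without WT penis 1 and 0.20 without WT penis 3. Without WT penis 1, 10 of the 49 genes were higher at an adjusted p under 0.01 (Cdk1, Plk1, Aurka, Kif11 and Cenpe were added and Cdk6 was lost), against 15.5% of all genes. Granulocyte markers summed to 137, 92.2 and 69.1 CPM and leukocyte markers to 180, 121 and 126 CPM in WT penises 1, 2 and 3. WT penis 1 was the highest normal sample for 8 of 8 leukocyte markers, against 41.4% of all genes tested. Endothelial markers summed to 331, 304 and 266 CPM, with WT penis 3 the lowest for 6 of 6, against 35.2% of all genes tested. Basal markers summed to 23313, 21573 and 21287 CPM. Suprabasal markers summed to 56290, 50571 and 53843 CPM, and fibroblast markers to 6286, 6073 and 6355 CPM. Smooth muscle markers summed to 1830, 1539 and 2056 CPM. The suprabasal, fibroblast and smooth muscle sums were thus lowest in WT penis 2. The part of these cells in the G2/M order was not tested.

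Other genes of the cycle, listed by phase and not among the 49, gave 20 higher (21.7%) and 4 lower (4.35%) of 92, against 20.1% and 17.5% of all genes tested, so that the share of higher genes was near that of all genes. Of 14 other G1/S genes, 7 were higher and 0 lower, with a median log2 fold change of 0.57. The strongest by p-value were the activator E2f3 (log2 fold change 0.94, adjusted p = 0.000395), the replication kinase subunit Dbf4 (0.99, adjusted p = 0.00108) and the atypical repressor E2f7 (1.15, adjusted p = 0.00194). E2f7 and E2f8, which act as partners, were thus both higher. Of 30 other S genes, 2 were higher (Mcm10 at 1.18 and the clamp loader subunit Rfc3 at 0.70) and 1 was lower (the primase subunit Prim1 at -0.45), with a median of 0.10. Of 48 other G2/M genes, 11 were higher and 3 lower, with a median of 0.46. The spindle motor Kif15 (1.43), the cytokinesis kinase Cit (1.38) and Gtse1 (1.38) led the higher genes. The lower genes were the centromeric chaperone Hjurp (-0.70), the cleavage furrow protein Anln (-0.78) and securin (Pttg1, -0.62). As among the 49 genes, the S list had the smallest median. Of 21 cyclins and kinases outside the division cycle, 3 were higher and 1 was lower, with a median of 0.17. They were Cdk18 (0.75), Ccng1 (0.77), Cdk17 (0.71) and, lower, Cdk19 (-0.39).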

How the data were processed

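Alignment by the authors was made with TopHat against mm10 and counting with HTSeq, in versions not given in the sources used here. They deposited raw counts, not normalized, for 33068 RefSeq transcript rows, with FPKM and TPM values that the authors derived from the counts. Reads shared by transcripts were counted in each row, so each symbol was represented by its row of highest mean count. Of the 49 genes, 15 had several rows, and their next row reached a median of 99.7% of the row used. Transcript lengths implied by the deposited FPKM gave levels per kilobase, and FPKM and TPM entered no test.

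The main test was made with edgeR 4.0.16 under R 4.3.3 (filterByExpr, a minimum of 10 counts, TMM, robust quasi-likelihood F-test, Benjamini-Hochberg adjustment over 16336 genes, all 6 samples, no block). Thresholds were an adjusted p of 0.01 and, where named, a log2 fold change of 2. Standard errors are the log2 fold change over the square root of F, and 95% intervals use the test's degrees of freedom. With 3 against 3 samples no permutation test of a single gene can go below p = 0.10, so none was run. No test was made over a list. Alternatives were DESeq2 1.42.0, limma-voom (limma 3.58.1), 4 other scalings (RLE, upper quartile, library totals and TMM without the 50 highest genes), no filter, a mean of at least 50 counts, the replicate number as a block, each sample left out, and the sum or the first of a symbol's rows. The methods were tested on simulated data. The genes, lists and tests were chosen with earlier results of these data known. All 49 genes could be named, and of each other list the 3 of smallest p and any called against its list's direction. Limits on counts cover counting error only.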

Additional observations from a re-analysis of the deposited data

How the results depend on the processing

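Of the 10 called genes, Ccnd2, Ccne1, E2f8, Rrm1, Rrm2 and Cdc25b passed in all 17 alternatives, Bub1 and Mki67 in 13, and Cdk6 and Racgap1 in 10, with no change of direction. Ccne1 alone passed a log2 fold change of 2 in each. RLE, TMM without the 50 highest genes, both filters and both other choices of transcript row changed no call of the 49 genes.

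DESeq2 called 12 of the 49 genes higher, adding Cdk4, Cdk1, Plk1, Aurka, Kif11 and Cenpe (21.2% of all genes tested were higher), and 7 of the 92 other cycle genes lower. Library totals only, which leave the median gene at a log2 fold change of 0.31, gave 5248 genes higher and 1806 lower, 19 of the 49 higher (32.1% of all genes tested), 38 of the 92 higher and 0 lower (20 and 4 with TMM), and medians of 0.62 for G1/S and 0.39 for S genes. They also turned the sign of Ccnd3 (0.22), Cdk2 (0.15), E2f1 (0.23), Mcm6 (0.0529), Nusap1 (0.20) and Kif23 (0.10), all values below the shift of the median gene. E2f1 was also positive with upper quartile scaling (0.00561).

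With 1 sample left out, between 3 and 10 of the 49 genes were higher (3 without WT penis 2 and 10 without WT penis 1, where 14.2% and 15.5% of all genes tested were higher), and of the 92 others between 10 and 20 were higher and between 1 and 3 lower. The S median ranged from -0.0052 (without WT penis 1) to 0.16. Signs turned for Ccnd3 (range -0.194 to 0.0393, positive without SA tumor 1), for E2f1 (-0.216 to 0.0471, positive without SA tumor 3 at 0.00252 and without WT penis 3), and without WT penis 1 for Mcm3 (-0.0628 to 0.0924), Mcm4 (-0.0266) and Nusap1 (-0.348 to 0.174). The cause of these shifts was not tested.

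The replicate numbers were not taken as pairs: residuals of samples with the same number correlated at -0.13, -0.10 and 0.02 across genes, with a mean of -0.07, and those of different numbers at 0.03. With the replicate number as a block, 4 of the 49 genes were higher and 3 lower. Cdk6, Mki67 and Racgap1 were lost, at adjusted p of 0.0157, 0.0111 and 0.0162, and 1 of the 92 others was lower. The share of all genes called with the block is not given here, so the drop cannot be read as particular to the cycle genes.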
